A study of Mus musculus with 6 samples.

Results

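The genes described here are 35 genes of endothelial cell junctions, caveolae and leucocyte adhesion, a list drawn up by function and matched by symbol to the count tables. All 35 symbols were found among the 40879 in the tables, 34 of them had a count in at least 1 library, and 33 had enough counts to be tested. By role, 7 belong to the adherens junction, 8 to the tight junction, 7 to leucocyte adhesion, 5 to caveolae and the diaphragm of endothelial pores, 3 are sialomucins, 2 tetraspanins and 3 connexins. The RNA came from primary hepatic stellate cells of wild-type male mice, kept for 24 h with vehicle in 3 libraries or with APB-R3, an engineered interleukin-18 binding protein, in 3 others. The treated cultures received 150 µg of APB-R3 per ml by the series text and 150 µg per kg by the sample protocol, so the unit is not settled. The labels give neither the age of the mice nor the number of animals or cultures, so every p-value measures only the spread between these libraries, which may be technical. Stellate cells are the retinoid-storing pericytes that lie between hepatocytes and the sinusoidal endothelium, and the series asks whether APB-R3 attenuates their activation.

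Endothelial cells are held together by cadherins, which bind the same cadherin on the next cell and are anchored to actin through catenins, and by strands of claudins and junctional adhesion molecules tied to scaffold proteins. Caveolae are membrane pits shaped by caveolins and cavins, and the glycoprotein PLVAP forms the thin diaphragm over their necks and over fenestrae. Sinusoidal endothelium of the liver has open fenestrae without diaphragms and little basement membrane, and continuous endothelium of larger vessels is known for CD34, PLVAP and abundant caveolae. Selectins, ICAM and VCAM proteins catch leucocytes on the vessel wall, and several of them are induced by inflammatory cytokines.

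Library totals ran from 8323809 counts in APB-R3 replicate 1 to 10792531 in APB-R3 replicate 2, and the 35 genes together took between 0.888% and 0.951% of a library. Levels are given as CPM, the gene's counts in every 1000000 of the library total. A fragment near the 3' end of each transcript was sequenced, so a count does not grow with transcript length. Levels of different genes are set side by side on that ground, with the limits at 3' ends given below. Other differences in counting between genes were not tested. The cells were labelled as stellate cells, yet 10 markers of sinusoidal endothelium, led by Lyve1 and Kdr, summed to between 3945 and 4446 CPM in a library and 10 markers of stellate cells, led by Dcn and Col1a1, to between 661 and 744 CPM. On average the matrix genes Dcn and Col1a1 had 308 and 139 CPM, Acta2 had 114, Col3a1 58.3 and Hgf 46.6 CPM. Rgs5 had 14.0, Pdgfrb 8.12, the filament gene Des 4.70 and Lhx2 4.13 CPM, and Lrat, which stores vitamin A, had 1.68 CPM. Macrophage markers, led by Cd5l and Cd68, summed to between 299 and 499.7 CPM, and all 10 genes had counts in at least 1 library, though Timd4 had only 5 counts in all. Of markers of lymphocytes and neutrophils, Cd3e, Cd79a and Ly6g were at 0 in all libraries, as was Ccl21a, a defining gene of lymphatic endothelium. These are values of mixed cultures, in which fewer cells of a type and less RNA per cell cannot be told apart. Vehicle replicate 2 stood apart with 93.1 CPM over 8 hepatocyte genes against 6.37 to 15.0 CPM elsewhere. APB-R3 replicate 1 stood apart with 36.5 CPM of the cytokine gene Il1b against 0.476 to 2.28 CPM, and with 260.5 CPM of the chemokine gene Cxcl2 against 39.0 to 59.7 CPM.

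Levels ran from among the highest of the tested genes down to no count. Cdh5 stood first at 1149 ± 128 CPM (SD, n = 6 libraries), above 99.4% of the genes tested, followed by Pecam1 at 935 ± 123 CPM and Ctnnb1 at 774 ± 42.9 CPM. In all, 7 genes had at least 500 CPM and 21 had at least 100 CPM, and the median of the tested genes on the list was 164 CPM against 21.4 CPM over all 12776 genes tested. At the other end, Sele had 4.11, Ocln 2.66, Gja4 2.14 and Cgn 0.378 CPM, and Gja5 had no count. The order is firm only in places. Of the 34 pairs of neighbours in it, 29 overlapped in their 6 libraries and 5 did not. The clear steps lay below Ctnna1, Afdn, Icam1, Cd34 and Gja4.

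**Figure D1:**
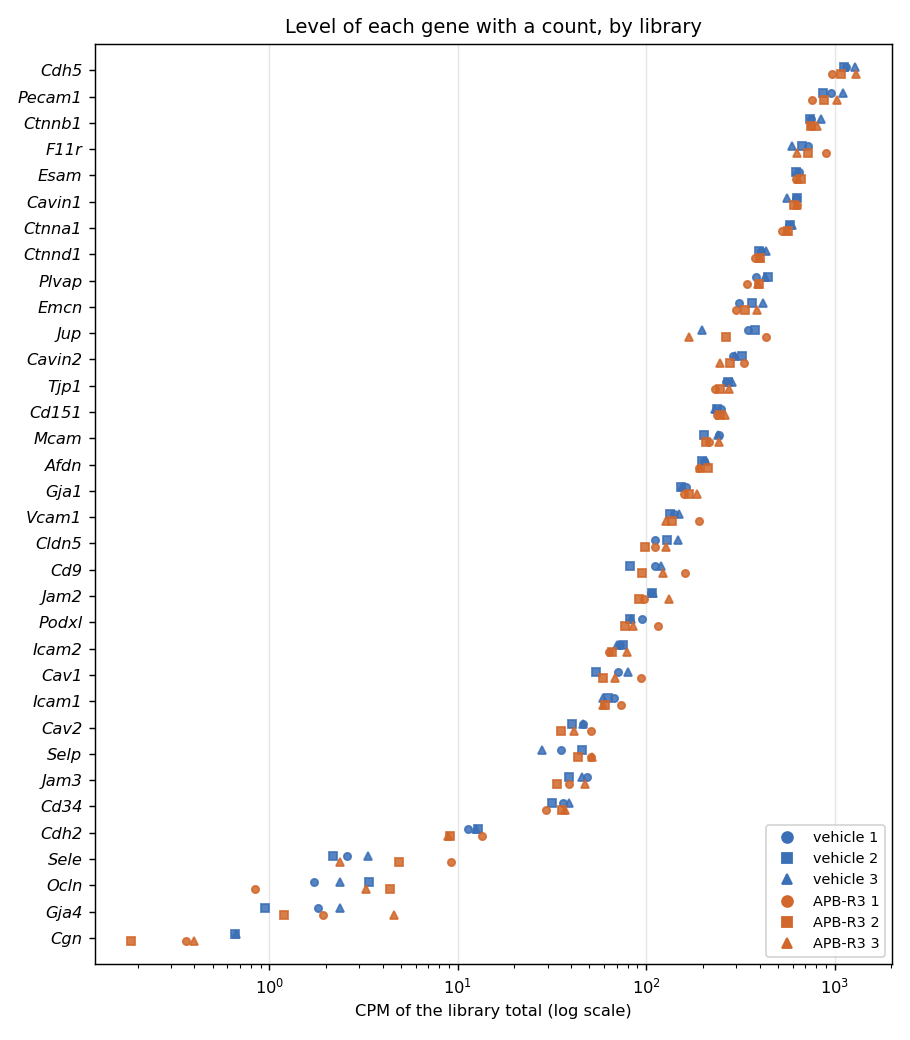
CPM of the library total (log scale) of the 34 genes with a count, ordered by mean, with blue marks for the 3 vehicle and orange marks for the 3 APB-R3 libraries (a library at 0, as vehicle replicate 1 for Cgn, has no mark). Cdh5 and Pecam1 lie highest in both groups, Jup has the widest spread among the abundant genes, and Sele, Ocln, Gja4 and Cgn lie below 10 CPM in every library.

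The comparison of APB-R3 with vehicle found no gene of the list that passed edgeR's quasi-likelihood test at a Benjamini-Hochberg adjusted p under 0.05 (0 of 33 tested), where the share called over all 12776 genes was 0%. The smallest adjusted p on the list was 0.9998. At an unadjusted p under 0.05 there were 2 of the 33 (6.06%), Selp and Sele, both with higher fitted levels in APB-R3, where 3.33% of all tested genes lay under that p (1.75% higher and 1.57% lower). DESeq2 also called 0 of the 33 with 2 at an unadjusted p under 0.05, and limma-voom called 0 with 1. Fitted levels were lower with APB-R3 in 19 and higher in 14 of the 33 genes, where 49.3% of all tested genes were lower. The median log2 fold change was −0.037 on the list and 0.0032 over all tested genes. In 1 of the 33 genes, Ctnna1, the CPM of the groups did not overlap, where 8.91% of all tested genes had groups apart (4.75% higher and 4.16% lower with APB-R3). For 28 of the 33 the unadjusted 95% interval lay within a 1.5-fold change either way. The other 5 were Cdh2, Ocln, Sele, Selp and Gja4.

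Among adherens junction genes, Cdh5, the cadherin that joins endothelial cells, had 1149, 1118 and 1284 CPM in vehicle replicates 1 to 3 and 965, 1076 and 1303 CPM in APB-R3 replicates 1 to 3. APB-R3 replicate 1 was the lowest and APB-R3 replicate 3 the highest of the 6, so the groups overlapped. The log2 fold change was −0.093 (SE 0.096, 95% interval −0.29 to 0.11). Leaving out APB-R3 replicate 1 moved it to −0.0067 and leaving out APB-R3 replicate 3 to −0.21.

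The catenins tie cadherins to actin. Ctnnb1, beta-catenin, had 751, 743 and 847 CPM with vehicle against 749, 749 and 807 CPM with APB-R3. Ctnna1, alpha-catenin, which binds actin, had 576, 578 and 592 CPM with vehicle against 524, 569 and 561 CPM with APB-R3. For Ctnna1 every library with APB-R3 was below every one with vehicle. The log2 fold change of Ctnna1 was −0.084 with an SE of 0.082, about as large as its error. Ctnnd1, p120-catenin, which keeps cadherins at the membrane, had 413.5 ± 18.5 CPM with vehicle against 393 ± 13.2 CPM with APB-R3 (SD, n = 3 each). Afdn, the scaffold afadin, had 203 ± 5.39 and 199 ± 11.8 CPM. The counts of Ctnnb1 carry a limit, since an exon of Ulk4 lies over its 3' end on the other strand in another annotation build and the strand setting of the counting is not known. Ulk4 itself had 12 counts over all libraries, while Ctnnb1 had 47032 counts.

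Jup, plakoglobin or gamma-catenin, which takes the place of beta-catenin at cadherins and also serves desmosomes, varied most among the listed genes with at least 100 CPM. It had 349, 379 and 197 CPM with vehicle against 432, 264 and 169 CPM with APB-R3. The range was 1.92-fold among vehicle libraries and 2.55-fold among APB-R3 libraries, and in both groups replicate 3 was the lowest. The coefficient of variation of Jup over the 6 libraries was 35.1%, and none of the 1983 tested genes with at least 100 CPM had a larger one. Without APB-R3 replicate 1 it was 33.7%. The mean was 308 ± 97.4 CPM with vehicle against 288.5 ± 133 CPM with APB-R3. On the log2 scale this difference was −0.10 (SE 0.23, 95% interval −0.57 to 0.37), and its sign turned when vehicle replicate 2 (0.087) or APB-R3 replicate 3 (0.18) was left out. Relative to Cdh5, Jup ran from 13.0% in APB-R3 replicate 3 to 44.8% in APB-R3 replicate 1, where Ctnnb1 ran only from 62.0% to 77.6%.

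Cdh2, N-cadherin, which is also made by mesenchymal cells, was the only adherens junction gene under 100 CPM, at 11.4, 12.9 and 12.5 CPM with vehicle against 13.5, 9.08 and 8.83 CPM with APB-R3. Its log2 fold change was −0.24 (SE 0.23), and −0.46 once APB-R3 replicate 1 was left out. All 7 adherens junction genes had a fitted log2 fold change below 0, between −0.24 and −0.028, with none at an unadjusted p under 0.05. The 7 genes summed to 3447, 3427 and 3575 CPM with vehicle against 3252, 3279 and 3442 CPM with APB-R3, and these sums overlapped. On library sizes scaled by TMM, the scaling of the test, they were 3441, 3467 and 3561 CPM against 3270, 3300 and 3384 CPM, and no longer overlapped. Per gene and on library totals, only Ctnna1 of the 7 had groups apart, and the share of single genes apart on the TMM scale was not computed.

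**Figure D2:**
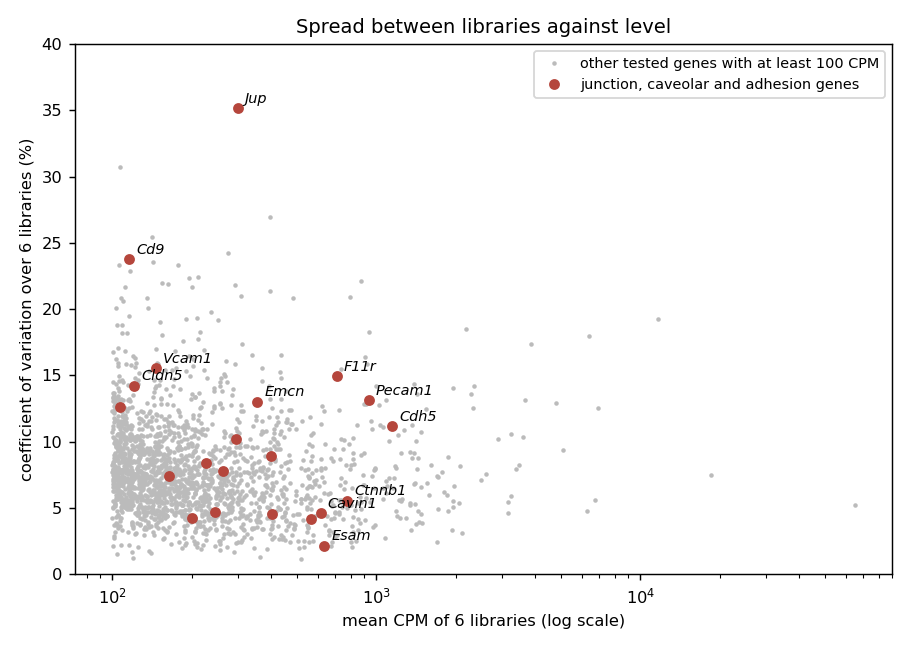
Coefficient of variation over the 6 libraries (%) against mean CPM (log scale) for all 1983 tested genes with at least 100 CPM (grey) and the 21 listed genes among them (red). Jup lies above all other points at 35.1%, Cd9 has 23.8%, and Esam lies near the bottom at 2.15%.

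The spread between libraries split the list beyond Jup. Of the 21 listed genes with at least 100 CPM, Cd9 had a coefficient of variation of 23.8%, Vcam1 15.6%, F11r 14.9% and Cldn5 14.2%, each larger than in at least 94.4% of the 1983 genes. Esam had 2.15%, Ctnna1 4.15%, Afdn 4.26%, Ctnnd1 4.50% and Cavin1 4.59%. The median was 8.89% for the listed genes and 7.29% for the 1983. Without APB-R3 replicate 1 the value fell to 5.48% for Vcam1 and 8.19% for F11r.

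Among tight junction genes, those of the immunoglobulin family were abundant. F11r, which encodes JAM-A, an adhesion molecule of endothelium, epithelium and leucocytes, had 724, 674 and 598 CPM with vehicle against 900.1, 722 and 636 CPM with APB-R3. As with Jup, APB-R3 replicate 1 was the highest of the 6 libraries and replicate 3 was the lowest in each group. Its log2 fold change of 0.17 (SE 0.11) was 0.018 without APB-R3 replicate 1. Esam, an endothelial relative of the JAM proteins, was the steadiest gene of the list, with 644, 625 and 629 CPM with vehicle against 625, 660.1 and 638 CPM with APB-R3. The fitted difference was 0.014 on the log2 scale (SE 0.081), with a 95% interval from −0.16 to 0.18. Jam2 had 107 ± 1.08 CPM with vehicle against 107 ± 21.3 CPM with APB-R3, where replicate 3 reached 132 CPM. Jam3 had 44.4 ± 5.08 and 40.1 ± 6.82 CPM.

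Cldn5, the claudin that seals endothelial tight junctions, had 111, 129 and 148 CPM with vehicle against 112, 99.0 and 127 CPM with APB-R3. The groups overlapped, with the lowest value in APB-R3 replicate 2 and the highest in vehicle replicate 3. The difference on the log2 scale was −0.21 (SE 0.11, 95% interval −0.44 to 0.030) and lay between −0.31 and −0.10 with each library left out in turn. Tjp1, the scaffold ZO-1, had 275 ± 10.6 CPM with vehicle against 250.5 ± 21.9 CPM with APB-R3. Its fitted log2 difference was −0.14 (SE 0.090).

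The tight junction proteins typical of epithelia were hardly counted. Ocln, occludin, had 18, 36 and 25 counts in vehicle and 7, 47 and 33 in APB-R3. The APB-R3 libraries held both its lowest and its highest value. Its log2 fold change of 0.18 (SE 0.53) moved to 0.59 when APB-R3 replicate 1 was left out and turned to −0.28 when APB-R3 replicate 2 was. Cgn, cingulin, had 0, 7 and 7 counts in vehicle and 3, 2 and 4 in APB-R3 and was below the count filter. The 8 markers of cholangiocytes and mesothelium, led by Krt19 and Sox9, summed to between 5.56 and 11.7 CPM, and Msln, Krt7, Upk3b and Cldn4 were each at 0 in some libraries. In this group 3 of the 7 tested genes had a fitted level above vehicle and 4 below, none at an unadjusted p under 0.05.

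The genes of leucocyte adhesion held the only listed genes at an unadjusted p under 0.05. Selp, P-selectin, which endothelial cells and platelets store and move to the surface, had 35.3, 45.8 and 28.1 CPM with vehicle against 51.1, 43.6 and 51.5 CPM with APB-R3. Replicate 2 of APB-R3 lay below replicate 2 of vehicle, so the groups overlapped, and the other APB-R3 libraries lay above all vehicle libraries. The log2 fold change was 0.41 (SE 0.15, 95% interval 0.098 to 0.73) with an unadjusted p of 0.0127 and an edgeR adjusted p of 0.9998. It was 0.25 without vehicle replicate 3 and 0.63 without vehicle replicate 2, the extremes over leaving out each library. Markers of platelets, which also carry Selp, summed to between 21.5 and 27.0 CPM in vehicle libraries and between 25.5 and 32.7 CPM in APB-R3 libraries over 6 genes, led by Pf4 and Itga2b, and their part in the Selp difference was not tested. The platelet genes Ppbp, Gp9, Gp1ba and Treml1 were each at 0 in 2 libraries. A noncoding gene, Gm16548, lies on the other strand at the 3' end of Selp in another annotation build and had no counts. This does not show that the counts of Selp were unaffected, since the strand setting of the counting is not known.

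Sele, E-selectin, which endothelium makes after cytokine stimulation, had 27, 23 and 35 counts in vehicle and 77, 53 and 24 in APB-R3. That gave 2.59, 2.18 and 3.33 CPM against 9.25, 4.91 and 2.38 CPM. The highest value was in APB-R3 replicate 1, and APB-R3 replicate 3 lay within the vehicle range. The log2 fold change of 1.02 (SE 0.45, unadjusted p = 0.0334) fell to 0.43 without APB-R3 replicate 1, where Il1b and Cxcl2 were high, and to 0.31 without that library and vehicle replicate 2, a choice made after seeing the data.

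Vcam1 and Icam1, which bind leucocyte integrins, likewise peaked in APB-R3 replicate 1. Vcam1 had 140.3, 135 and 149 CPM with vehicle against 191, 136 and 128 CPM with APB-R3. Without APB-R3 replicate 1, its log2 fold change went from 0.10 (SE 0.12) to −0.11. Icam1 had 67.9, 63.1 and 58.8 CPM with vehicle against 73.2, 60.9 and 59.2 CPM with APB-R3, and its log2 fold change went from 0.019 (SE 0.12) to −0.088. The part of this library's Il1b level in the values of Sele, Vcam1 and Icam1 was not tested. The counts of Icam1 carry a limit like that of Ctnnb1, since an antisense gene, Gm47079, lies over its 3' end in the other annotation build. That symbol is not among those of the count tables, and whether the gene was counted under another name is not known.

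The constitutive endothelial genes of this group, Pecam1 and Icam2, were lowest in APB-R3 replicate 1, as Cdh5 was. Pecam1, the adhesion molecule CD31 of endothelial borders, had 957, 873 and 1108 CPM with vehicle against 762, 882 and 1027 CPM with APB-R3. It was highest in vehicle replicate 3, and its log2 fold change was −0.14 (SE 0.10). Relative to Cdh5 it kept between 78.1% and 86.2% in the 6 libraries. Icam2, a ligand for leucocyte integrins that resting endothelium carries, had 72.9 ± 2.47 CPM with vehicle against 69.7 ± 8.32 CPM with APB-R3. Mcam, the adhesion molecule CD146 of endothelium and pericytes, had 229 ± 22.8 and 222 ± 18.7 CPM.

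**Figure D3:**
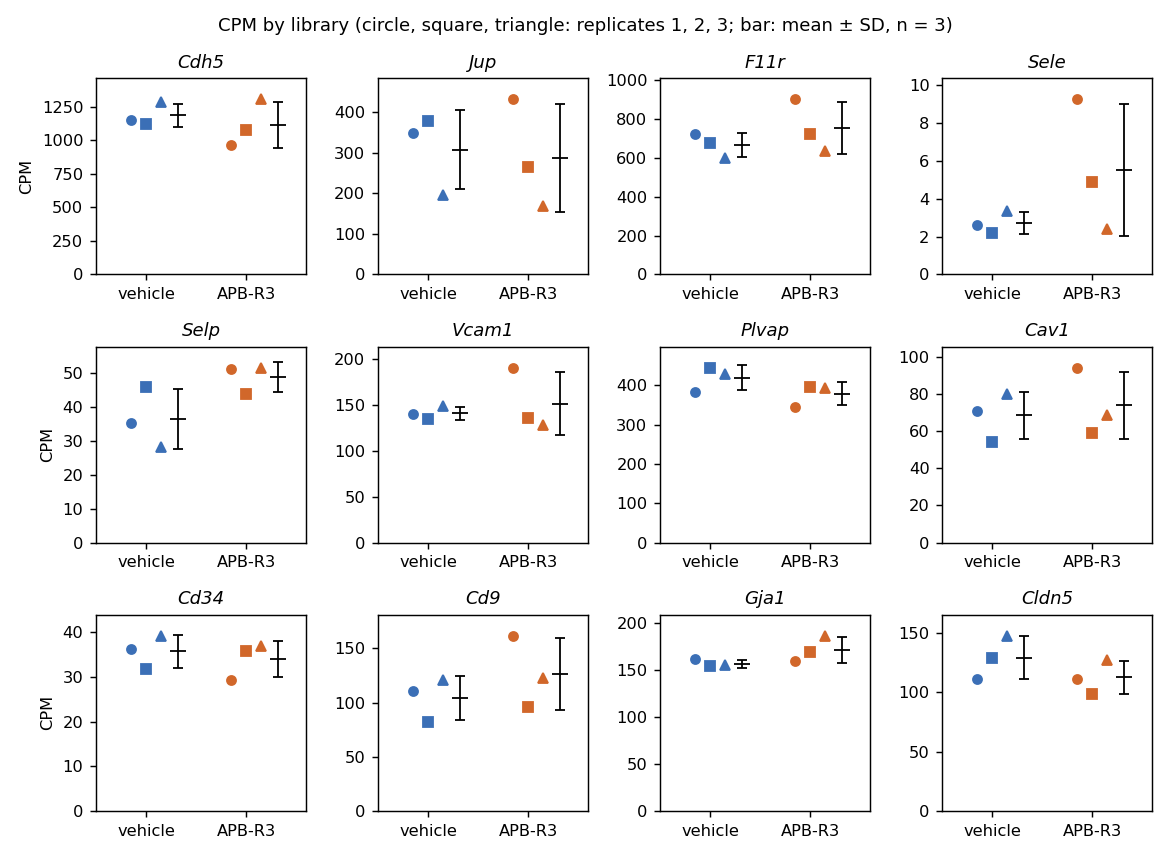
CPM by library for 12 genes, with circles, squares and triangles for replicates 1, 2 and 3, blue for vehicle and orange for APB-R3, and bars for the mean ± SD (n = 3 each). Sele, Vcam1, Cav1 and Cd9 have their highest point in APB-R3 replicate 1, Jup has its lowest points in replicate 3 of both groups, and Selp has 2 of 3 APB-R3 points above all vehicle points.

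The upstream sequences of Sele, Selp, Icam1 and Cd9 are shown. Selp and Sele had the smallest p of the list. Sele, Icam1 and Cd9 were highest in the library with high Il1b, as were Jup, F11r, Cdh2, Vcam1, Cav1, Cav2, Cavin2 and Podxl, which are not shown. Sele, Icam1 and Cd9 are also the only listed genes in which an NF-kB-like string was found. They therefore do not stand for the genes highest in that library. The sequences were taken from RefSeq on GRCm38.p6, a build other than the GRCm39 used for counting. They run from 250 to 51 bases before the annotated start, 5′ to 3′ on the gene's strand. Capitals mark matches to letter strings like binding sites of NF-kB (GGGNNTTCC, a longer one with 1 more T before CC, and GGANNTTCC, which was chosen after the sequences were seen) and of ETS factors (AGGAAG), read on both strands.
Sele, chr1:164047984-164048183, plus strand: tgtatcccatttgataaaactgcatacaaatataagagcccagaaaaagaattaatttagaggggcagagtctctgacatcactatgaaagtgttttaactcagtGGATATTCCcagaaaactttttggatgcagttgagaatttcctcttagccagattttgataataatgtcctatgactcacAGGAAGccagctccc
Selp, chr1:164115014-164115213, plus strand: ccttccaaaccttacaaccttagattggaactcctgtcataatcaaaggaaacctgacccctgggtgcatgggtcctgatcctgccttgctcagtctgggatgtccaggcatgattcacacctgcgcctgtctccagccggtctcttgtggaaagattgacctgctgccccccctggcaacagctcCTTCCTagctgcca
Icam1, chr9:21015690-21015889, plus strand: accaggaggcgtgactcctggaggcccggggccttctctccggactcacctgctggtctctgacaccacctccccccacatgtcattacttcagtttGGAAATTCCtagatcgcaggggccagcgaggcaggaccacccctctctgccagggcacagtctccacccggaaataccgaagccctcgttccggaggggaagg
Cd9, chr6:125494811-125495010, minus strand: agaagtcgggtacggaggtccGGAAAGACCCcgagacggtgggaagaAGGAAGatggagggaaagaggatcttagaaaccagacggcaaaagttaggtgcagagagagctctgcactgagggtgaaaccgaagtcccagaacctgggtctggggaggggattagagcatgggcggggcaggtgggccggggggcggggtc

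Of the 35 genes, 24 had an entry among the RefSeq promoters. In the 250 bases before the start, the longer NF-kB string was found in Cd9 alone of the 24, on the other strand 229 to 220 bases before the start, against 1.65% of all 27025 genes with an entry. GGGNNTTCC was found in none of the 24, against 5.61% of all genes. The string GGANNTTCC was found in Sele (GGATATTCC, 145 to 137 bases before the start) and in Icam1 (GGAAATTCC, 153 to 145 bases before, matching on both strands), against 4.12% of all genes. AGGAAG was found in 8 of the 24, namely Cd34, Cd9, Ctnnd1, Emcn, Gja1, Gja5, Sele and Selp, a share of 33.3% against 32.3% of all genes. In Selp it lies on the other strand, 64 to 59 bases before the start, in Sele 65 to 60 bases before. None of these matches overlapped another string in the 4 windows. A match describes letters, and no binding was measured.

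Caveolar genes were present at very unequal levels. Cavin1, which coats caveolae, had 627, 634 and 560.2 CPM with vehicle against 631, 611 and 629.7 CPM with APB-R3. Vehicle replicate 3 was the lowest, and the log2 fold change was 0.034 (SE 0.085). Cav1, the main caveolin, had only 70.9, 54.4 and 79.8 CPM with vehicle against 94.1, 59.1 and 68.6 CPM with APB-R3. The level of Cavin1 was thus between 671% and 1166% of that of Cav1. Cav1 was highest in APB-R3 replicate 1 and lowest in vehicle replicate 2. Its log2 fold change of 0.11 (SE 0.15) turned to −0.11 when APB-R3 replicate 1 was left out, to −0.025 when vehicle replicate 2 was, and to −0.24 when both were. Cav2, which pairs with Cav1, had 44.3 ± 3.13 CPM with vehicle against 42.6 ± 7.90 CPM with APB-R3. Cavin2, which shapes caveolae with Cavin1, had 303 ± 16.9 and 285 ± 41.3 CPM and ran from 330 CPM in APB-R3 replicate 1 to 248 CPM in APB-R3 replicate 3.

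Plvap, the diaphragm protein, was more abundant than both caveolins, with 384, 445 and 430 CPM with vehicle against 345, 397 and 395 CPM with APB-R3. The groups overlapped, with APB-R3 replicate 1 the lowest of the 6. For Plvap the log2 fold change was −0.15 (SE 0.092, 95% interval −0.34 to 0.037), and −0.097 without APB-R3 replicate 1. Among the sialomucins, Cd34, a marker of continuous endothelium and of progenitors, had 36.3, 31.8 and 39.2 CPM with vehicle against 29.4, 35.8 and 36.9 CPM with APB-R3. For Cd34 it was −0.074 (SE 0.14). Emcn, endomucin of capillary and venous endothelium, had 366 ± 52.9 and 341 ± 44.9 CPM. Podxl, podocalyxin, had 86.5 ± 7.29 CPM with vehicle against 92.5 ± 20.6 CPM with APB-R3, with 116 CPM in APB-R3 replicate 1.

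The genes typical of continuous endothelium were set against the general junction genes. Cd34, Plvap and Cav1 summed to 491, 531.5 and 549 CPM with vehicle against 468, 492 and 500.1 CPM with APB-R3. The 15 adherens and tight junction genes summed to 5350, 5276 and 5393 CPM with vehicle against 5259, 5137 and 5299.9 CPM with APB-R3. These overlapped. On TMM-scaled library sizes the 15 genes gave 5339.8, 5336 and 5371 CPM against 5287, 5169 and 5211 CPM. The groups were then apart, with a ratio of means of 0.976. The sum of all 35 genes was also apart on that scale, likewise at 0.976, with 9204 CPM in APB-R3 replicate 3 against 9229 CPM in vehicle replicate 2. The 35 genes include the 15, and the 15 include the adherens junction genes, so these sums are not separate observations. The sums of the continuous endothelium, tight junction, leucocyte adhesion, caveola, sialomucin, tetraspanin and connexin genes overlapped on it. The share of single genes apart on that scale was not computed. As a share of the junction sum, the continuous endothelium genes made 9.18%, 10.1% and 10.2% in vehicle and 8.91%, 9.58% and 9.44% in APB-R3. The shares overlapped, with a mean of 9.81% ± 0.550 in vehicle and 9.31% ± 0.355 in APB-R3 (SD, n = 3 each). Plvap made most of the first sum. Relative to Cdh5, Plvap had between 30.3% and 39.8%, Cav1 between 4.86% and 9.75% and Cd34 between 2.83% and 3.33%, the highest share of Cav1 being in APB-R3 replicate 1. Beside them, 10 markers of vascular endothelium summed to 1084 ± 22.4 CPM with vehicle against 1010 ± 125 CPM with APB-R3. Most of it came from Eng, Sox17 and Thbd, with means of 436, 295 and 179 CPM over the 6 libraries. Wnt2 had 61.2, Efnb2 40.2, Rspo3 32.2, Hey1 1.32 and Ly6c1 0.300 CPM, and Wnt9b had 1 count in all. Vwf, the von Willebrand factor of larger vessels, had 0.767, 3.03 and 2.66 CPM with vehicle against 0.120, 1.02 and 1.09 CPM with APB-R3. How much of the sum came from larger vessels was not tested.

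Of the tetraspanins, which gather integrins in the membrane, Cd151 had 239.6 ± 9.53 CPM with vehicle against 249 ± 13.1 CPM with APB-R3. Cd9 had 111, 81.7 and 121 CPM with vehicle against 162, 95.5 and 123 CPM with APB-R3. It was highest in APB-R3 replicate 1 and lowest in vehicle replicate 2, the same libraries as for Cav1. For Cd9 the log2 fold change was 0.27 (SE 0.15, 95% interval −0.040 to 0.58), 0.051 without APB-R3 replicate 1 and −0.088 without both libraries. Cd9 is also made by platelets and macrophages, whose marker sums are given above, and their part in it was not tested.

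The connexins form gap junctions, and only Gja1 was abundant. Gja1, connexin 43 of many cell types, had 162, 154 and 155 CPM with vehicle against 159.5, 169 and 187 CPM with APB-R3. APB-R3 replicate 1 lay within the vehicle range and the others above it, with a log2 fold change of 0.12 (SE 0.093) that stayed between 0.073 and 0.17 with each library left out. Gja4, connexin 37 of arterial endothelium, had 19, 10 and 25 counts in vehicle and 16, 13 and 46 in APB-R3. The log2 fold change of Gja4, 0.57 (SE 0.57), turned to −0.14 without APB-R3 replicate 3. Gja5, connexin 40 of arterial endothelium, had 0 counts in the 60703376 of all libraries, which allows up to 0.0494 CPM over the 6 libraries together, for counting error only.

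**Figure D4:**
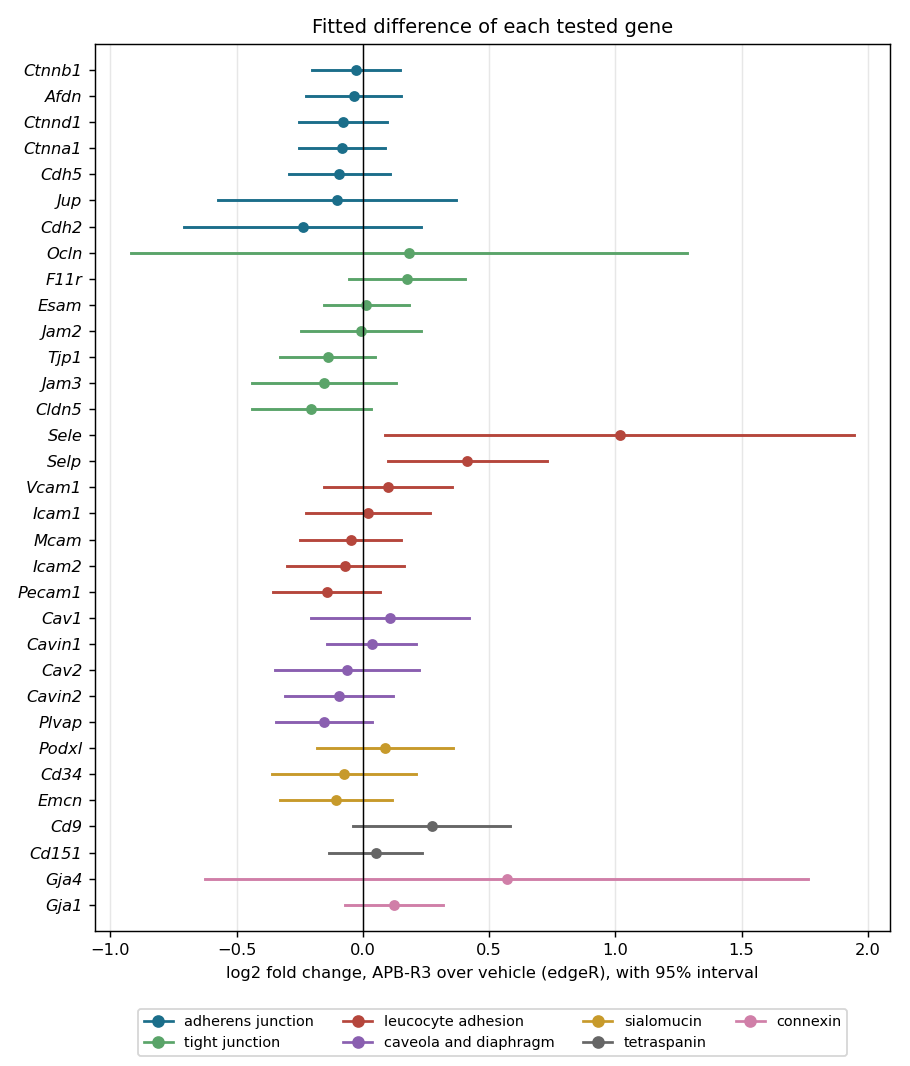
Fitted log2 fold change (APB-R3 over vehicle, edgeR) with its 95% interval for the 33 tested genes, coloured by role. All 7 adherens junction genes lie left of 0 with intervals that include 0, and the intervals of Selp and Sele lie right of 0 before adjustment for the number of genes.

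APB-R3 replicate 1 held the extreme value of most listed genes. It was the highest library for 11 and the lowest for 11 of the 33 tested genes. Over the 1983 tested genes with at least 100 CPM it was the highest for 27.1% and the lowest for 29.6%, and over all 12776 for 19.5% and 21.6%. The genes lowest there were Cdh5, Pecam1, Emcn, Plvap, Cd34, Icam2, Tjp1, Ctnna1, Ctnnd1, Afdn and Ocln. The genes highest there were Jup, F11r, Cdh2, Vcam1, Icam1, Sele, Cav1, Cav2, Cavin2, Podxl and Cd9. In the same library the 10 sinusoidal markers summed to 4005 CPM, within the 3945 to 4446 CPM of the others. That sum hid a split, since Lyve1, its largest part, was at its highest there with 1889 CPM. Stab1, Stab2, Clec4g, Fcgr2b, Mrc1, Kdr, Flt4 and Oit3 were at their lowest there, and Gpr182 was at neither end. The 10 vascular markers summed to 907 CPM in APB-R3 replicate 1, below the 973 to 1148 CPM of the others. That library also had the lowest total. With every library thinned to that total, fitted levels were higher in 15 and lower in 18 of the 33 genes, against 14 and 19 before. The part of cell makeup in this split was not tested. Without APB-R3 replicate 1, fitted levels were higher in 12 and lower in 21 of the 33 genes, and without it and vehicle replicate 2 they were higher in 11 and lower in 22, again with 0 calls.

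**Figure D5:**
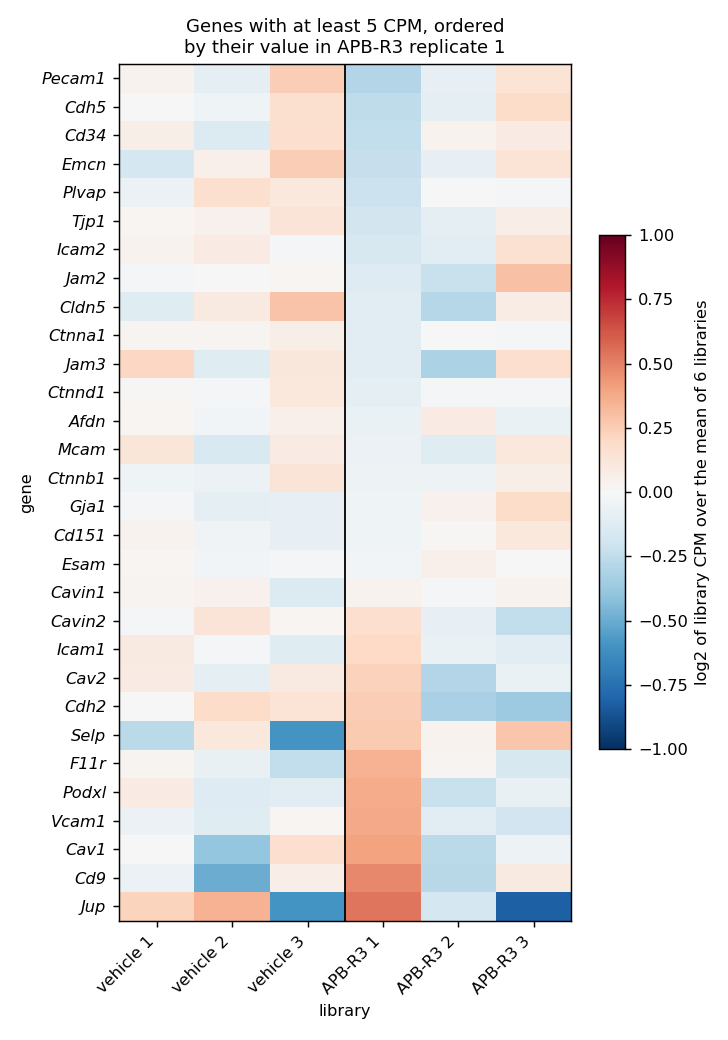
Log2 of each library's CPM over the mean of the 6 libraries for the 30 listed genes with at least 5 CPM, ordered by the value in APB-R3 replicate 1 (red above, blue below the mean). Pecam1, Cdh5 and Cd34 are lowest and Cav1, Cd9 and Jup highest in that library, and the Jup row is blue in replicate 3 of both groups.

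Other genes of junctions and caveolae, from a separate list of 110 symbols of which 108 were found, were read from the same fit. Of the 74 tested, 34 had a fitted level above vehicle and 40 below, with a median log2 fold change of −0.014, 0 passing and 0 with an unadjusted p under 0.05 by edgeR. Levels of the groups stood apart in 4 of the 74 (Dsp, Clmp, Tspan4 and Vezt), against the 8.91% of all tested genes. The most abundant were Cd63, a tetraspanin of late endosomes, at 1411 ± 142 CPM, Msn, the actin linker moesin, at 1407 ± 74.9 CPM, Cd47 at 757 ± 48.5 CPM and Ptprb, the endothelial phosphatase that acts on VE-cadherin and Tie2, at 723 ± 89.3 CPM (SD, n = 6). The smallest p belonged to Dsp, the desmosome linker desmoplakin, with 63 counts in all and 0.571 ± 0.251 CPM in vehicle against 1.55 ± 0.149 CPM with APB-R3. For Dsp the log2 fold change was 1.41 (SE 0.70, unadjusted p = 0.056). Next came Ezr, ezrin, at −0.45 (SE 0.24), Tspan4 at −0.19 (SE 0.10) and Cgnl1, a relative of cingulin, at −0.16 (SE 0.091). Cgnl1 had 206.0 ± 6.16 CPM with vehicle against 186 ± 14.6 CPM with APB-R3, against the few counts of Cgn.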

How the data were processed

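Gene expression was measured by Lexogen QuantSeq 3' RNA sequencing, from 500 ng of total RNA per library, in 3 vehicle and 3 APB-R3 libraries. The deposited values are whole-number counts per gene symbol, not normalized. Per the submitters' processing notes, bcl2fastq 2.20.0.422, fastp, STAR and HTSeq were used with GRCm39. The sources used here state neither the strand setting nor any use of molecular identifiers, so limits cover counting error only.

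Groups and replicate numbers were taken from the titles. The file headers carry other numbers, 1 higher each. Genes passing filterByExpr (minimum count 10, total 15; 12776 of 40879) were tested with TMM scaling and edgeR 4.0.16's quasi-likelihood test in R 4.3.3 on treatment alone, two-sided, with Benjamini-Hochberg adjustment over all tested genes and a threshold of 0.05. SE is the log2 fold change over the square root of F. Settings tried were DESeq2 1.42.0, limma-voom 3.58.1 (limma), other scalings and filters, thinning, a replicate term and leaving out libraries. The fit was also run on simulated counts with means and dispersions taken from these data. The outcome is not given here, so the size of change that these libraries could detect is not stated. All 35 genes are named. Of other junction genes, the 4 with the smallest p and the 4 most abundant are named, of each marker list the 2 most abundant and those at 0, and Il1b and Cxcl2 where a listed gene moves with the library that has them high. Genes named outside that rule were chosen after their values were seen. They were Clmp, Vezt, Vwf, Timd4, Ulk4, Gm16548, Gm47079 and the marker genes given as 0 in some libraries. So were the sinusoidal, vascular and stellate markers named beyond the 2 most abundant. The genes and lists were chosen with earlier results of these data known. Replicate libraries differed by more than sampling noise (chi-square per degree of freedom 5.93 to 13.6). Promoters came from RefSeq (GRCm38.p6) and overlaps at 3' ends from GENCODE (GRCm38).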

Additional observations from a re-analysis of the deposited data

How the results depend on the processing

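No listed gene passed under any of the 16 alternatives, and the lowest adjusted p among them was 0.816, for Selp with the replicate block. Among all genes, 20 passed with no low-count filter, and between 0 and 1 when each library was left out (the 1 without vehicle replicate 3). Between 1 and 6 listed genes had an unadjusted p under 0.05, with 6 without APB-R3 replicate 3, where 674 of all genes did. Of the 33, 17 kept the sign of their log2 fold change in every setting and 16 turned in some. With each library left out in turn, log2 fold changes ran from −0.058 to 0.031 for Ctnnb1, −0.52 to 0.18 for Jup, −0.013 to 0.029 for Esam, −0.17 to 0.087 for Jam2, −0.28 to 0.59 for Ocln, −0.088 to 0.087 for Icam1, −0.11 to 0.22 for Vcam1, −0.11 to 0.24 for Cav1, −0.22 to 0.051 for Cav2, −0.024 to 0.078 for Cavin1, −0.22 to 0.0074 for Cavin2, −0.14 to 0.011 for Cd34, −0.11 to 0.20 for Podxl and −0.14 to 0.91 for Gja4. Without APB-R3 replicate 1 and vehicle replicate 2, an alternative chosen after seeing the data, values that turned were 0.053 for Jam2, −0.079 for Icam1, 0.017 for Icam2, −0.13 for Vcam1, −0.24 for Cav1, −0.14 for Podxl and −0.088 for Cd9. With libraries thinned to the smallest total, Jam2 turned to 0.018. The ratio of APB-R3 to vehicle of the hepatocyte sum, 0.258, ran from 0.186 to 0.893, the last without vehicle replicate 2, and that of the lymphocyte and neutrophil sum, 0.732, from 0.526 to 1.53, the last without vehicle replicate 1. The cause was not tested.

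The titles share replicate numbers across groups, but same-numbered libraries deviated together only weakly over all tested genes (r of 0.022, 0.027 and 0.048), so the numbers were not taken to pair the samples, a choice that depends on the genes used. Over 8467 genes with at least 10 CPM r was 0.114, 0.109 and 0.128, and each library correlated best with its own number, a hint from the data and not from the design. Over the 33 listed genes r was 0.590, 0.691 and 0.384, and from −0.64 to −0.12 between libraries of different numbers. Here and over all tested genes each library also correlated best with its own number. The deviations were taken from each group's mean and so sum to 0 within a group. Values for the same number and for different numbers are therefore tied, and the negative ones add no separate evidence. Of the 33 genes, 3 (F11r, Cd9 and Gja4) were higher and 4 (Ctnna1, Tjp1, Plvap and Emcn) lower with APB-R3 in every same-numbered pair (9.09% and 12.1%), as were 13.0% and 12.0% of all tested genes. With the replicate block 0 genes passed and 539 had an unadjusted p under 0.05 by edgeR, against 0 and 425 without it. Of the 33 listed genes 4 did (Selp, Cd9, Cldn5 and F11r), against 2, and Sele no longer did (unadjusted p = 0.0537 with the block). Depth limits Ocln, Gja4, Cgn, Gja5 and Sele most, which had at most 77 counts in a library.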
